A study of Mus musculus with 6 samples.

Results

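The regions described here are 753 sites of open chromatin whose ATAC-seq signal was at least 3-fold lower in lung endothelial cells of CSE-KO mice than of WT mice. They were chosen from 58172 regions of the deposited table, of which 47573 lay on autosomes, averaged 20 or more across the 6 libraries and are called eligible below. A lost region had a mean of the 3 WT values plus 1 that was at least 3 times the mean of the 3 CSE-KO values plus 1, with every CSE-KO value under every WT value. The mirrored rule gave 684 gained regions (1.44% of eligible regions), which serve as the comparison set. With the median promoter ratio set to 0, 990 lost and 540 gained regions met the rules. Since the rule used the difference between the genotypes, the values and folds of the lost regions are a description and carry no test.

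ATAC-seq uses the Tn5 transposase to cut and tag DNA that is not wrapped tightly, and so reads out how open the chromatin is. The groups were 3 libraries labelled WT and Cre-neg and 3 labelled CSE-KO and Cre-pos, all from mouse lung endothelial cells (MLEC). CSE is cystathionine gamma-lyase, the enzyme that Cth encodes. The sources used here do not give the Cre driver, the deleted part of Cth, strain, age or sex, or whether the libraries came from separate animals. Every CSE-KO library was also Cre-positive, so that Cre and the loss of the enzyme cannot be told apart, and any p-value reflects nothing beyond the spread among these 6 libraries. In these bulk samples, fewer cells with an open region and a less open region per cell cannot be told apart either.

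Most open chromatin away from gene starts is made of enhancers and other regulatory elements, where transcription factors displace nucleosomes and recruit enzymes that acetylate histones. In endothelial cells ETS factors such as ERG, together with SOX, GATA and AP-1 factors, occupy many of these elements. Cystathionine gamma-lyase makes cysteine from cystathionine at the end of the transsulfuration pathway and also generates hydrogen sulfide. An element is assigned to a gene here by distance only, which does not show that it acts on that gene.

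The 6 libraries summed to between 5242490 and 5547417 in deposited value. Up to a value of 100 the CSE-KO columns skipped 35 to 39 whole numbers and the WT columns none, so that 1 read stood for about 1.54 to 1.64 units in CSE-KO and low CSE-KO values are coarse. Endothelial markers had a promoter region for 9 of 10 genes (Pecam1 had none), with sums of 1281 to 1369 in WT and 1385 to 1579 in CSE-KO. For mural cells 3 of 6 markers had one (130 to 144 and 118 to 151), and for lung epithelium 2 of 6 (128 to 164 and 131 to 189). The only fibroblast marker of 5 with a promoter region was Col1a1 (56 to 74 and 110 to 163), and the only leukocyte marker of 7 was Spi1 (155 to 194 and 91 to 106). Ptprc, the pan-leukocyte marker, had none. No marker promoter was a lost region, and the part of other cell types in the losses was not tested.

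Sequence could be shown where a lost region overlapped a RefSeq window of 250 bases before to 50 bases after a start site (GRCm38.p6, the coordinates of mm10). This held for 16 of 753 lost regions, and for 12 of these 16 the start belonged to a noncoding RNA. The 6 stretches below carry the lost region at Cth itself, the 2 noncoding starts with the highest WT values, a noncoding start near Scarb1, and 2 protein-coding starts. They are chr3:157925078-157925207 (plus strand, between the divergent starts of Cth and 1810013D15Rik), chr6:112210458-112210757 (plus), chr10:93335961-93336260 (plus), chr5:125360928-125361227 (plus), chr4:43729925-43730033 (plus) and chr11:118401960-118402209 (minus). Capitals mark CAGGAAG or its reverse complement CTTCCTG, a core that ETS factors are known to bind. It was picked for display after the counts of 18 motifs had been seen.
1810013D15Rik: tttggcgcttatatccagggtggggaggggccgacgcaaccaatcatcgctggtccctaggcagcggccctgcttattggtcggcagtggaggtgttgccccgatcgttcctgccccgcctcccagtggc
1700054K19Rik: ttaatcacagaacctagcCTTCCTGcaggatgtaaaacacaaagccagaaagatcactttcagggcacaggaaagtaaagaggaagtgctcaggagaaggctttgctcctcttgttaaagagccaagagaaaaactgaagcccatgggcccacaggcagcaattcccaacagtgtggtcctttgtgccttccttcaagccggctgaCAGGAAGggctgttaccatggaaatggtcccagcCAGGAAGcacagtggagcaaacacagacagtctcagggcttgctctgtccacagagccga
Gm17745: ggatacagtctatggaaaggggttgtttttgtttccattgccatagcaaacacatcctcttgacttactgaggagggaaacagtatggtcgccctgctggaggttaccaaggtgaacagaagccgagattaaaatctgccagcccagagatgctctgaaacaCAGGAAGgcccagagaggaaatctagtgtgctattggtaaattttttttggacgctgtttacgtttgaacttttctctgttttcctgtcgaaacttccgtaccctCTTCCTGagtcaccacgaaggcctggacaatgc
Gm40323: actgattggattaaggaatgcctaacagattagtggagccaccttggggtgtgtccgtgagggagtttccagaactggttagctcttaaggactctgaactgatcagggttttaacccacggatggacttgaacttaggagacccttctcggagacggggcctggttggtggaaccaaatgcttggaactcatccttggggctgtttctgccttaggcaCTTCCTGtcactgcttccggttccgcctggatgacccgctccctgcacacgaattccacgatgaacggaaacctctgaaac
Spaar: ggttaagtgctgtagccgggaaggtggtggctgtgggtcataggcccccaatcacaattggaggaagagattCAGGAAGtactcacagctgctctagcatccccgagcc
Lgals3bp: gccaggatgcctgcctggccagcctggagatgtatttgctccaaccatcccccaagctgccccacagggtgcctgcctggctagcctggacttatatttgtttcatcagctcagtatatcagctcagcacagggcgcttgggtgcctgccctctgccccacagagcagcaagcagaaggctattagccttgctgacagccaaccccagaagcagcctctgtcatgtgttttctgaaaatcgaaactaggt

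CAGGAAG on either strand was present in 9 of the 16 windows at lost regions (56.2%), 8 of them noncoding. It was present in 13.3% of all 32817 RefSeq windows searched and in 12.1% of the 12519 windows over other eligible regions, or 15.7% of the 1800 noncoding ones among these. The stretch at 1700054K19Rik held 3 matches and that at Gm17745 held 2, while those at Cth and Lgals3bp held none. The AP-1 motif TGANTCA was in 2 of the 16 windows, against 7.81% of all windows and 5.18% of those over other eligible regions. Median GC content was 51.7% in the 16 windows at lost regions and 62.3% in the windows over other eligible regions. These sets differ in make-up, since 75% of the former and 14.4% of the latter were noncoding. All 11588 noncoding windows had a median of 48.3%, and the part of this make-up in the GC difference was not tested. The other motifs searched, on both strands, were in 0 to 4 of the 16 windows (CCGGAAG of ETS factors, SOX ACAATG, FOX TGTTTAC, the GATA-family AGATAA, KLF CCCACCC, TEAD GGAATG, RUNX TGTGGTT, E-box CAGCTG, E-box CACGTG, NRF2 TGACNNNGC, CRE core TGACGT, the MEF2 motif, heat shock element GAANNTTC, a CTCF core part AGGGGGC, SMAD GGCGCC, SMAD CAGACA). Some of these also differed from their share of all windows, in both directions. SOX ACAATG was in 25% against 12.6%, CACGTG in 18.8% against 7.15% and the heat shock element in 18.8% against 7.86%. The CRE core and the CTCF core part were in 0 windows, against 7.51% and 10.6%. In windows over other eligible regions the shares were 6.6% for SOX ACAATG, 10.5% for CACGTG and 5.51% for the heat shock element. They were 12.1% there for the CRE core and 17.2% for the CTCF core part. All of these are letter matches in 16 windows, not binding sites, and lost regions away from start sites had no sequence to search.

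Lost regions were weak but seldom empty in CSE-KO. The mean of at least 20 and the 3-fold ratio together put a floor under their WT level. Their WT mean had a median of 81.0 (quartiles 52.7 and 133, range 31.7 to 588). This stands beside 66.3 over eligible regions and 52.3 over those outside promoters, and the floor enters that difference. The CSE-KO mean of lost regions had a median of 20.7 (13.0 and 35.7, range 3.67 to 190). The median region thus kept 27.2% of its WT level. The median over lost regions was alike within a group, at 83.0, 82.0 and 79.0 in the 3 WT libraries and 21.0, 21.0 and 20 in the 3 CSE-KO libraries. Of all deposited signal, lost regions held 1.53% ± 0.026 (SD, n = 3) of the WT total and 0.384% ± 0.0073 (SD, n = 3) of the CSE-KO total.

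Most losses lay close to the threshold. Between 3-fold and 4-fold lay 521 regions (69.2%), between 4-fold and 5-fold 159 (21.1%), and 73 (9.69%) were lower by 5-fold or more. In 192 regions (25.5%) the highest CSE-KO value times 3 was still under the lowest WT value. A CSE-KO value of 0 occurred in 9 regions and never in all 3 libraries. The groups did not overlap at 21.9% of eligible regions with CSE-KO below WT, and 1.58% of eligible regions met the rule. By limma on log2(value + 1), 733 of the 753 were called lower at a Benjamini-Hochberg adjusted p of 0.05, where 9.60% of all tested regions were called lower. The rule used this contrast, and nothing is read from that share.

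**Figure D1:**
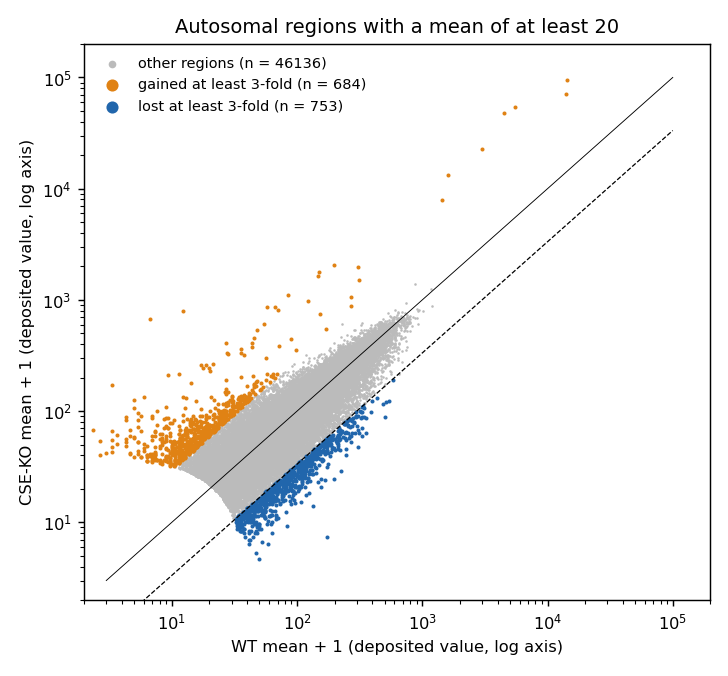
Mean WT value plus 1 (x axis) against mean CSE-KO value plus 1 (y axis) of each eligible region, both on log axes, with equality as a solid line and the 3-fold boundary as a dashed line. The 753 lost regions (blue) lie under the dashed line with WT means of 31.7 to 588, and the 684 gained regions (orange) reach higher values.

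At the boundary, values on either side were alike. Just inside were regions nearest to Postn (31, 38 and 33 in WT against 11, 11 and 10 in CSE-KO), Trib1 (53, 65 and 74 against 15, 26 and 21) and Igll1 (69, 67 and 62 against 31, 20 and 13), each at 3.00-fold. Just outside, at 2.99-fold, were regions nearest to Olfr371 (145, 132 and 127 against 51, 38 and 44), Mgat5 (110, 127 and 119 against 54, 25 and 38) and Gm5148 (58, 99 and 82 against 36, 11 and 31). In all, 253 lost regions were under 3.3-fold, and 365 regions that met the other conditions lay between 2.7-fold and 3-fold. No gap in fold separated the lost regions from the rest.

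Replicate spread in CSE-KO was large for weak regions. The coefficient of variation had a median of 10.4% in WT and 33.5% in CSE-KO over the lost regions, against 12.2% and 18.9% over all eligible regions. The CSE-KO mean was under 20 in 357 lost regions (47.4%), where a few reads move the fold. To read the size of the loss in libraries that had not chosen the regions, the rule was applied to 2 WT and 2 CSE-KO libraries and the change read in the remaining pair, for all 9 pairs. It chose 839 to 959 regions, whose median log2 change was -1.86 to -1.84 in the choosing libraries and -1.58 to -1.48 in the held-out pair. In the held-out pair 98.0% to 99.1% of them were lower in CSE-KO and 43.4% to 50.8% were lower by 3-fold or more, against 47.5% to 49.3% and 2.77% to 3.25% of all eligible regions.

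**Figure D2:**
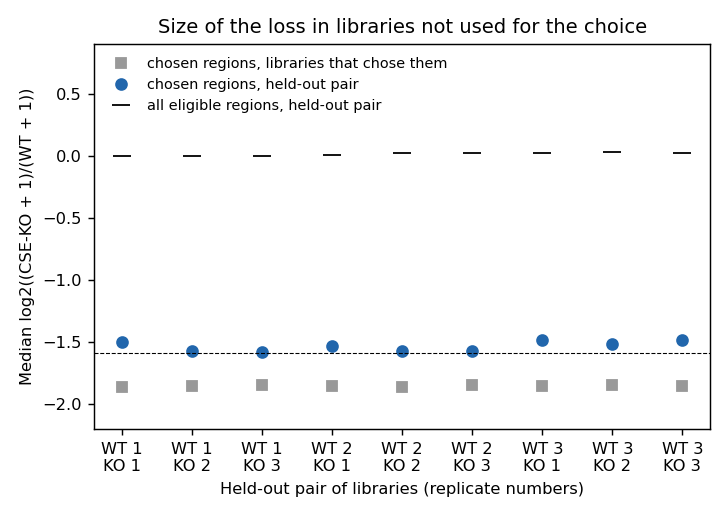
Median log2((CSE-KO + 1)/(WT + 1)) on the y axis for each of 9 held-out pairs of libraries on the x axis, for regions chosen by the other 4 libraries (grey squares in those libraries, blue circles in the held-out pair) and for all eligible regions (black dashes). The blue circles lie between -1.58 and -1.48, beside the dashed line of the 3-fold threshold and above the grey squares.

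The Cth promoter, on chromosome 3 from 157924836 to 157925422 and centred 52 bp from the start site, led the list. The WT libraries had 195, 157 and 167 there and the CSE-KO libraries 11, 6 and 2, 23.7-fold lower, and the next largest fold was 10.6. All 3 CSE-KO libraries were far under all 3 WT libraries at this gene, in accord with their labels. The values cannot separate closed chromatin from missing sequence in the engineered allele.

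After Cth, the largest folds were at weak or middling elements far from gene starts. A region on chromosome 12, 540 kb from the nearest start site (Dcdc2c), had 44, 47 and 55 in WT against 0, 11 and 0 in CSE-KO. A region within Asap1, an Arf GTPase-activating protein of adhesion sites, had 152, 137 and 113 in WT against 11, 18 and 10 in CSE-KO. It lies on chromosome 15 from 64285154 to 64285512, 97.6 kb from the start site. Low values made up the first of these, whereas the second stood on WT values over 100 in every library. Regions near Erv3 (9.32-fold), Poc1b (8.89-fold) and Batf3 (8.75-fold), an AP-1 family factor, had WT means of 58.0, 82.0 and 45.7. The region within Mctp1, a calcium-sensing membrane protein, had 197, 205 and 187 in WT against 25, 26 and 20 in CSE-KO, with the groups far apart. Folds of 7.92 and 7.90 followed within Acot7 and Nsl1.

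The lost regions with the highest WT level included elements near Id1, Elk3 and Abca1. The strongest lay 2.73 kb from the start of Id1, a BMP-induced inhibitor of basic helix-loop-helix factors, on chromosome 2 from 152738399 to 152739570. It had 624, 581 and 559 in WT against 199, 165 and 207 in CSE-KO. Despite the loss, it kept a CSE-KO mean of 190, above the WT mean of most lost regions. The second, at the noncoding start Gm17745 shown above and 25 kb from Elk3, an ETS-family factor, had 530, 573 and 534 against 150, 130 and 89. A region 27.4 kb from Abca1, the cholesterol exporter, had 555, 496 and 493 against 105, 120 and 135. That at the noncoding start 1700054K19Rik, 63.1 kb from Lmcd1, a LIM-domain transcriptional cofactor, had 493, 501 and 517 against 82, 78 and 102. These 4 regions had folds of 3.08, 4.41, 4.26 and 5.71, and no CSE-KO value came near a WT value.

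The region 86.6 kb from Tlr5, the flagellin receptor, had 457, 507 and 479 in WT against 80, 107 and 161 in CSE-KO. Regions near Ints3 (WT mean 434, 3.3-fold), Ctnnb1 (394, 3.22-fold, 151 kb from the start of this beta-catenin gene), Sgk1 (391, 3.98-fold, 187 kb) and Psg22 (356, 4.09-fold) came next. The region 255 kb from Mreg varied most among these, with 415, 347 and 300 in WT against 33, 110 and 44.

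**Figure D3:**
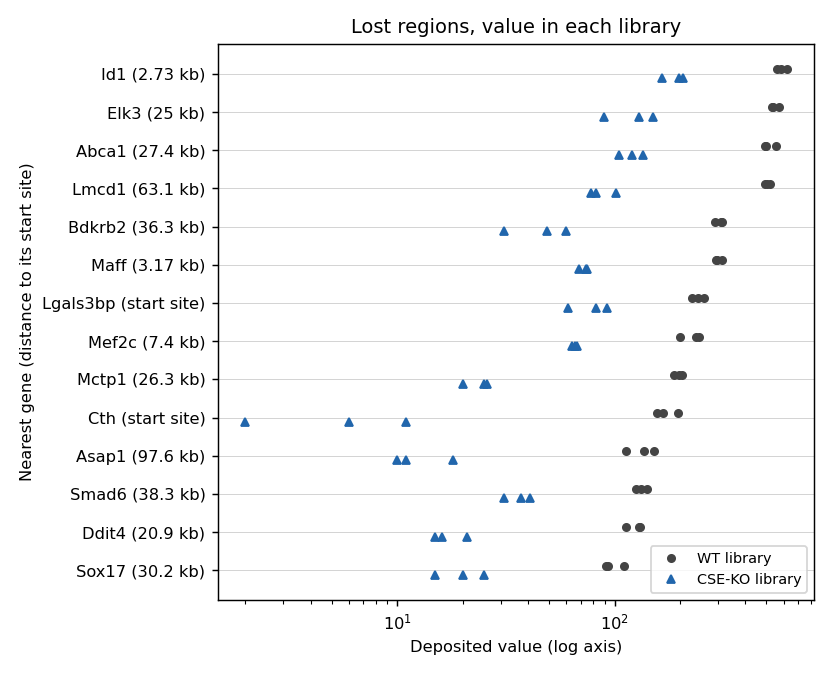
Deposited value in each library (x axis, log axis) of 14 lost regions, named on the y axis by the nearest gene and the distance to its start site, with WT libraries as dark circles and CSE-KO libraries as blue triangles. In every row the 3 triangles lie to the left of the 3 circles, from the Id1 region (559 to 624 in WT) to the Sox17 region (91 to 110 in WT).

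Lost regions were rare at gene starts. Only 31 of 753 (4.12%) were promoter regions, meaning that the deposited distance to the assigned start was 1 kb or less, against 25.6% of eligible and 6.29% of gained regions. Of the regions centred within 1 kb of a protein-coding start, 9 of 11934 (0.0754%) were lost. This share was 1.56% at 1 to 5 kb, 2.15% at 10 to 50 kb and 2.45% at 100 to 500 kb, and it stayed between 1.56% and 2.45% in every bin beyond 1 kb. The median distance of a lost region to the nearest protein-coding start was 39.7 kb (quartiles 15.9 and 98.4), against 31.5 kb over eligible regions outside promoters and 48.3 kb over gained regions. Beyond 100 kb lay 187 lost regions (24.8%) and beyond 500 kb 15. Protein-coding genes spanned 51.5% of the lost regions outside promoters, 54.7% of such eligible regions and 41.7% of such gained ones.

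The promoter regions that were lost were mostly assigned to genes not labelled protein-coding. The deposited table gave 24 of the 31 such a gene (18 of them lncRNAs). Of the promoter regions, 22.6% of those lost, 62.8% of those gained and 87.4% of those eligible were protein-coding. The 7 protein-coding promoter regions were at Cth, Gramd1a, Spaar, Tcp11, Lgals3, Lgals3bp and Eml1. At Gramd1a, a sterol transporter, a region 591 bp from the start had 66, 70 and 63 in WT against 11, 2 and 16 in CSE-KO. The promoter of Lgals3bp, the galectin-3 binding protein, had 228, 241 and 257 against 82, 92 and 61. That of Lgals3, galectin-3 itself, had 38, 41 and 39 against 16, 12 and 8. Spaar, which encodes a small lysosomal regulator of mTORC1, had 54, 39 and 38 against 13, 11 and 13. The lost region at Tcp11 had 41, 36 and 45 against 23, 6 and 7, and that at Eml1, a microtubule-binding protein, 168, 139 and 148 against 34, 69 and 44. In all 7 the groups did not overlap, as the rule required. Not every region at the starts of these genes was lost. Another Tcp11 promoter region, 0.767 kb from the lost one, had 66, 52 and 51 against 78, 93 and 82. A stronger region 156 bp from a start of Gramd1a had 380, 347 and 367 against 332, 241 and 307. A region 885 bp from a start of Eml1 had 258, 176 and 227 against 225, 142 and 271.

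Lost regions were about as wide as other distal regions, and gained regions were narrower. Their median width was 464 bp (quartiles 361 and 598, range 177 to 1477), against 443 bp over eligible regions outside promoters and 290 bp over gained regions. Regions under 300 bp made up 11.3% of the lost, 13.8% of the eligible and 52.0% of the gained regions. Outside promoters the share lost ran from 1.36% under 300 bp to 2.57% at 600 to 800 bp and was 0.764% from 1000 bp upward, whereas the share gained ran from 5.57% under 300 bp to 0.405% at 600 to 800 bp. By mean level, the share lost outside promoters was 2.10%, 2.11%, 2.30% and 1.90% in the bins from 20 to 200 and 0.702% from 200 upward. Signal per 100 bp had a median of 18.5 in WT and 4.73 in CSE-KO at lost regions, beside 12.4 and 12.6 at eligible regions outside promoters. Gained regions ran from 5.39 to 22.6. The rules for lost and gained regions set the direction of these differences, so they are not a separate trait. Per chromosome, lost regions made up between 1.22% (chromosomes 1 and 11) and 2.06% (chromosome 12) of eligible regions. On the X chromosome, which the rule leaves out, 11 of 899 regions met its other conditions.

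**Figure D4:**
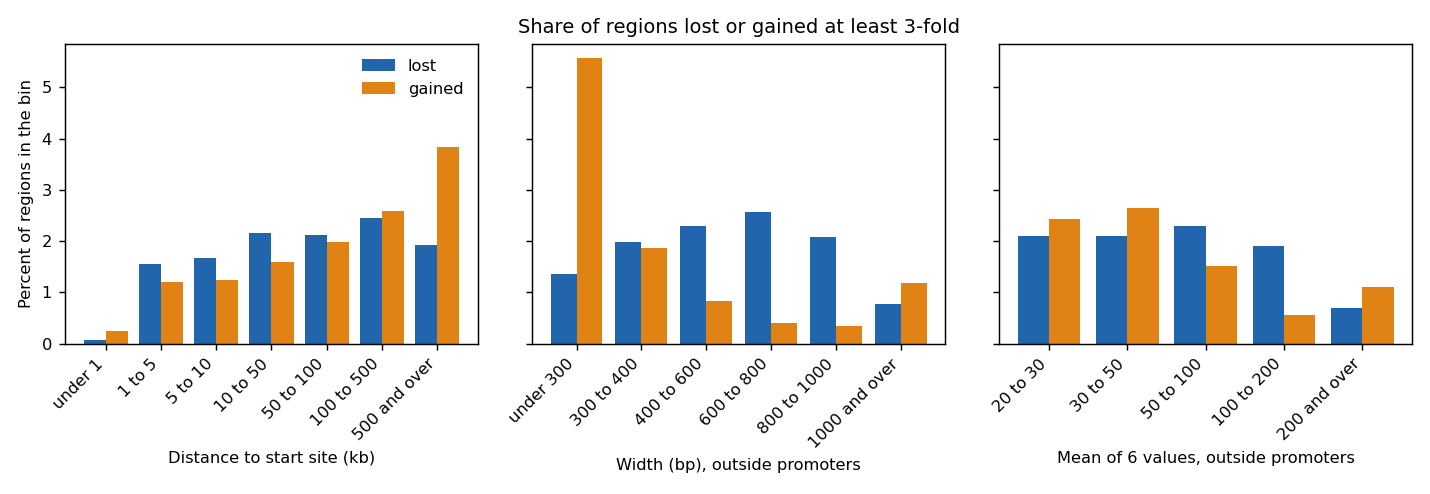
Percent of eligible regions lost (blue) or gained (orange) at least 3-fold, by distance to the nearest protein-coding start in kb, by width in bp outside promoters, and by mean of the 6 deposited values outside promoters. The lost share is 0.0754% within 1 kb of a start and 1.56% to 2.45% beyond it, and the gained share is 5.57% in the narrowest regions.

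Most lost regions stood alone. Within 50 kb, 142 of 753 (18.9%) had another lost region, in 65 clusters of which 54 were pairs, 10 held 3 and 1 held 4. The other 611 were single. Within 10 kb, 59 (7.84%) had another, and within 100 kb 188 (25%). Of 3737 eligible regions within 50 kb of a lost region 176 were lost too (4.71%, beside 1.58% of all eligible regions), and within 10 kb 66 of 784 (8.42%). Gained regions had 11.9% and 20.3% of their kind at the same distances. Counted by region, however, 13.9% of the 684 gained regions had another within 50 kb, in 35 clusters. Within 10 kb 8.63% of them had another, and within 100 kb 18.4%. A gained region lay within 50 kb of 14 lost regions (1.86%), beside 3.81% of eligible regions that were not gained.

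The cluster with most members lay in Ift122, a gene of ciliary transport, and near H1f8 on chromosome 6 (115880755 to 115905943). It held 4 lost regions among 6 eligible ones, with summed values of 661, 619 and 600 in WT against 127, 144 and 205 in CSE-KO. Within Asap1, 3 of 5 eligible regions in 41.4 kb on chromosome 15 were lost, with sums of 353, 338 and 337 against 40, 68 and 69. From H13 to beyond the start of Id1, 3 of 8 eligible regions in 33.5 kb on chromosome 2 were lost, with sums of 858, 824 and 793 against 246, 251 and 252. The CSE-KO sums of the Id1 cluster differed little between libraries, and those of the Ift122 cluster varied more. The closest group was 3 lost regions in 3.01 kb, which were all the eligible regions in that stretch, nearest to Pmepa1, a TGF-beta-induced inhibitor of SMAD signalling. It was singled out after its values were seen.

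Within 100 kb of a start site lay 566 lost regions, nearest to 509 genes, of which 47 had 2 or more and 8 had 3 or more. Asap1 had 4 of 17 eligible regions lost. Elmo1, which activates Rac together with DOCK proteins, had 4 of 25 lost and 2 gained. Gm525, Pmepa1, Eml1, Ift122, Wbp1l and Trib1, a pseudokinase that scaffolds protein degradation, had 3 each, among 7, 10, 11, 6, 13 and 21. A gained region was nearest to 20 of these genes too. That was 3.93% of the genes with a lost region, beside 3.01% of all 14135 genes with an eligible region, and 4.71% of the genes with a gained region, where 3.60% of all had a lost one.

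Open regions close to a lost region were lower in CSE-KO as well, though they did not meet the rule. The median log2 ratio of the means was -0.48 for 302 other regions under 5 kb away, -0.26 for 397 at 5 to 10 kb and -0.14 for 2451 at 10 to 50 kb. At 500 kb and more it was 0.07 for 29489 regions. Outside promoters the values ran from -0.57 to 0.03, and at promoters from -0.10 under 5 kb to 0.13. The promoter median was above the distal one in each of the 6 distance bins. When members were chosen by 2 libraries a group and the neighbours read in the held-out pair, the median under 5 kb was -0.53 to -0.38, and 71.2% to 75.2% of neighbours were lower. Beyond 500 kb the median was 0.04 to 0.07, with 44.7% to 46.8% lower. Around gained regions the change ran the other way. The median was 0.31 for 190 other regions under 5 kb from a gained region, 0.25 at 5 to 10 kb and 0.01 at 500 kb and over. By limma 17.9% of the 190 were called higher and 4.74% lower, beside 8.62% and 10.3% of eligible regions. Neighbours that change in the same direction were thus not particular to lost regions.

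By limma, 180 of the 699 other regions within 10 kb were called lower and 18 higher, where 10.3% of eligible regions were called lower and 8.62% higher. Without WT replicate 1, 2 or 3 the count called lower was 62, 65 or 66 (8.87%, 9.30% and 9.44%), where 3.45%, 3.53% and 3.58% of eligible regions were. Of 33 promoter regions under 5 kb from a lost region, 5 were called lower (15.2%), beside 3.07% of all eligible promoter regions that were not lost. Neighbours were not chosen by the rule, but they share its libraries and its normalization.

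**Figure D5:**
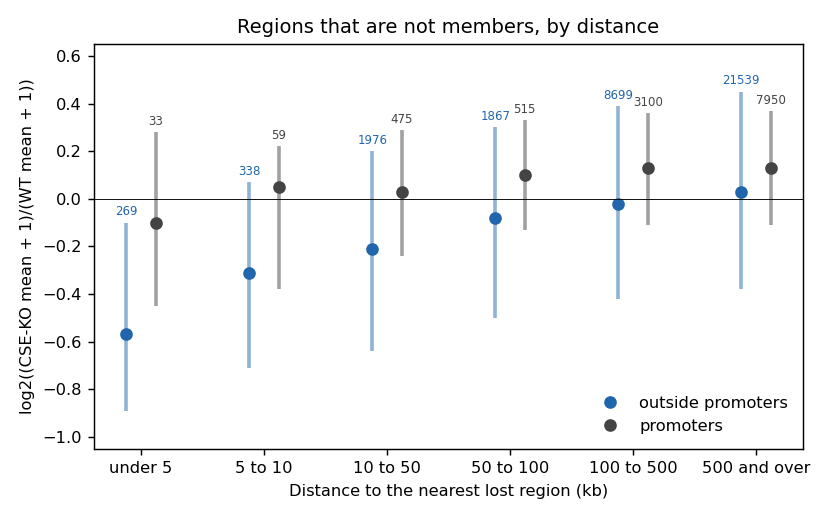
Median log2((CSE-KO mean + 1)/(WT mean + 1)) with quartiles as bars (y axis) of eligible regions that were not lost, by distance in kb to the nearest lost region (x axis), outside promoters in blue and at promoters in dark grey, with the number of regions above each bar. The blue medians run from -0.57 under 5 kb to 0.03 at 500 kb and over, and the dark grey ones from -0.10 to 0.13.

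Taken as a set, the promoters of genes near a lost distal region showed little of that loss. Here a promoter region also counts if it was centred within 1 kb of any protein-coding start used. Over 454 such promoter regions of 389 genes, none of them a lost region, the median log2 ratio was 0.05, beside 0.13 over all 12855 protein-coding promoter regions. By limma 12 were called lower (2.64%) and 15 higher (3.3%), where 1.99% and 5.02% of all protein-coding promoter regions were. Without WT replicate 1, 2 or 3 they were 1, 2 and 1 lower and 3, 3 and 4 higher, and without CSE-KO replicate 3 the count called higher was 9. They were 38 lower and 60 higher with limma's trend and robust settings and 3 and 6 with the replicate number as a block, where 6.33% and 16.2%, and 0.739% and 1.73%, of all protein-coding promoter regions were called. For genes with 2 or more lost distal regions the median of 43 promoter regions was -0.12. Of these, 13 (30.2%) had every CSE-KO value below every WT value and 3 (6.98%) had every one above. Over all protein-coding promoter regions these shares were 10.6% and 24.7%. Of the 43, limma called 2 lower (4.65%) and 0 higher. For genes with a gained distal region the median of 298 promoter regions was 0.16.

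At single genes, the promoter could overlap between the genotypes, be lower, or be higher beside a lost element. Of the 454 promoter regions, 65 (14.3%) had every CSE-KO value below every WT value and 96 (21.1%) had every one above, where 10.6% and 24.7% of all protein-coding promoter regions did. The promoter of Id1 had 187, 220 and 205 in WT against 183, 205 and 195 in CSE-KO, beside the lost element 2.73 kb away. Near Maff, a small MAF factor, the element within the gene had 294, 296 and 311 against 69, 75 and 74, while the region 274 bp from the nearest start (1173 bp from the start the deposited table assigns) had 479, 461 and 472 against 461, 481 and 400. At both genes the groups overlapped at the start. The Elk3 promoter, with 158, 157 and 177 against 90, 84 and 105, was lower in every CSE-KO library, as was that of Smad6, with 556, 520 and 529 against 439, 404 and 400. The Asap1 promoter had 397, 306 and 387 against 252, 317 and 217. At Ier3, an immediate early gene, the promoter was higher in every CSE-KO library (81, 80 and 58 against 158, 123 and 148), and the lost element 37.6 kb away had 177, 190 and 183 against 65, 43 and 46. In the limma fit across all regions, the Elk3 promoter was called lower (adjusted p = 0.0201) and that of Ier3 higher (0.0214). Those of Smad6 (0.135), Asap1 (0.154), Id1 (0.798) and Maff (0.768) were not called by it. The genes were named for their lost elements, and these calls are a description.

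Gene lists of endothelial biology, chosen with earlier results of these data known, were counted over the eligible regions within 100 kb of a start site. Of all 39766 such regions, 566 (1.42%) were lost, and the median log2 ratio was 0.03. The cytoskeleton and small GTPase list had 17 lost among 257 regions (6.61%, median -0.21), at 11 genes: Asap1, Asap2, Dock1, Dock6, Dock9, Elmo1, Lrrfip1, Rapgef1, Rhob, Rin3 and Srgap1. Some of these genes were listed because they had stood out in these samples, so the count is not independent evidence. The BMP, TGF-beta and SMAD list had 9 lost among 201 (4.48%, median -0.14), at Bmpr1a, Bmpr2, Id1, Smad6, Smad7 and Snai1. Leaving out 1 library at a time moved these counts to between 15 and 23 and between 8 and 11.

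Within the BMP list, receptors, inhibitors and a target each had a lost element. The element within Bmpr2, the type II BMP receptor, had 129, 136 and 135 in WT against 41, 49 and 18 in CSE-KO. The one 38.3 kb from Smad6, an inhibitory SMAD, had 133, 141 and 126 against 41, 37 and 31. Another element 7.92 kb from Id1 had 66, 75 and 58 against 8, 17 and 7. In the GTPase list, the element within Lrrfip1, an actin-regulating and RNA-binding protein, had 185, 167 and 172 against 49, 15 and 34.

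Endothelial identity genes had 7 lost among 213 regions (3.29%, median -0.30), at Egfl7, Elk3, Mmrn2, Plvap, Sox17 and Sox7. Leaving out 1 library at a time gave 5 to 10. The element 30.2 kb from Sox17, a factor of arterial endothelium, had 110, 93 and 91 in WT against 25, 20 and 15 in CSE-KO. Another element 64.1 kb from Elk3 had 256, 255 and 228 against 28, 44 and 46. That 35.0 kb from Sox7 had 55, 52 and 57 against 0, 14 and 16 and was among the 20 lost regions that limma did not call (adjusted p = 0.0733). The VEGF and angiopoietin list had 2 lost among 141 (1.42%, median -0.12), and 1 without WT replicate 1. One was the widest lost region, 1477 bp at the noncoding start Gm34574 and 34.2 kb from Dusp6, an ERK phosphatase, with 336, 309 and 299 against 121, 110 and 64. The other lay 48.9 kb from Angpt2, a TIE2 ligand, with 189, 176 and 161 against 60, 51 and 61.

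The Notch and arterial list had 4 lost among 153 (2.61%, median -0.10), at Gja4 and Gja5, which encode arterial connexins, at Hes1, a Notch target, and at Maml3, a Notch coactivator. The Hes1 element, 4.79 kb from the start, had 83, 92 and 91 in WT against 15, 35 and 33 in CSE-KO. The flow, KLF and vascular tone list had 5 among 143 (3.50%, median -0.12), at Bdkrb2, Mef2c and Timp3. The element 36.3 kb from Bdkrb2, the bradykinin B2 receptor, had 291, 310 and 313 against 49, 60 and 31, and 5.39 kb from it a weaker element had 50, 49 and 42 against 11, 17 and 8. The Mef2c element had 238, 201 and 244 against 64, 66 and 67. The AP-1 and immediate early list had 4 among 151 (2.65%, median -0.17), at Batf3, Ier3, Jun and Maff, and the YAP and TEAD list 0 among 103 (median -0.16). The last was 2 without CSE-KO replicate 1 and 1 without CSE-KO replicate 2.

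Among cysteine, glutathione and ATF4 genes 3 of 100 regions were lost (3.00%), at Cth, Ddit4 and Psat1, while the list's median was 0.14. The count was 5 without CSE-KO replicate 2 or 3. The element 20.9 kb from Ddit4, a stress-induced inhibitor of mTORC1, had 131, 130 and 113 in WT against 21, 15 and 16 in CSE-KO, and the Ddit4 promoter had 244, 226 and 217 against 346, 288 and 379. The element 19.7 kb from Psat1, an enzyme of serine synthesis, had 48, 42 and 63 against 7, 12 and 18, and the region at the Psat1 start 307, 351 and 307 against 369, 496 and 507. At both genes the element was lower, as the rule required, and the start higher in every CSE-KO library. Every CSE-KO value was above every WT value at 24.7% of all protein-coding promoter regions. By limma neither of these 2 start regions was called (adjusted p = 0.07 at Ddit4 and 0.115 at Psat1). Another region within 1 kb of each start was called higher (adjusted p = 0.0353 and 0.00557 by limma). The basement membrane and integrin list had 4 lost among 207 (1.93%, median -0.15), at Fn1, Hspg2 and Timp3. The region 1.34 kb from Hspg2, which encodes perlecan, had 239, 193 and 218 against 57, 60 and 62. No list was tested against other genes.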

How the data were processed

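ATAC-seq of 3 WT and 3 CSE-KO libraries was deposited as 1 table of regions with mm10 coordinates. The submitters' processing notes name STAR 2.7.3a, DESeq2 1.26.0, Trimmomatic 0.39 and Picard 3.1.1. Which peak caller was used, what each tool did and any Tn5 shift were not given in the sources used here. Deposited values were taken as a score, since they are whole numbers with near-equal totals whose gaps are those of scaled and rounded read counts, so no count model was run and counting intervals are not given.

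Lost regions were chosen with a pseudocount of 1. limma 3.58.1 in R 4.3.3 was fitted to log2(value + 1) of the 58129 regions averaging 5 or more, without trend or robust settings, with Benjamini-Hochberg adjustment over all of them, and was tested on simulated data. Start sites were the union of protein-coding genes in the deposited table and RefSeq windows (GRCm38.p6). They cover 20716 genes, and 1999 of 21896 RefSeq protein-coding genes had none, so some nearest genes may be missed. Distances run from region centres, and positions are given as deposited. The members and lists were chosen with earlier results of these data known. Named regions were Cth, the largest folds and WT means, the promoter regions, the genes and clusters with most lost regions, and up to 3 per list by fold. Others are said to be chosen after seeing their values, and 1 region that the rule takes is not reported here. Predicted or clone names were left out except as noncoding starts. Alternatives were other thresholds, pseudocounts, scalings, limma settings, the replicate block and each library left out.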

Additional observations from a re-analysis of the deposited data

How the results depend on the processing

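The number of lost regions was 486 with a pseudocount of 5, 3161 at 2-fold, 232 at 4-fold, 389 with a mean of at least 50 and 945 with a mean of at least 10, and 699 to 936 with 1 library left out. Setting the median promoter ratio to 0 shifted the median log2 ratio by -0.103 and gave 990 lost and 540 gained regions, and equal totals gave 869 and 593. Median width was 496, 481, 416 and 576 bp with a pseudocount of 5, at 2-fold, and with means of at least 10 and 50 (440 to 474 with 1 library left out). Median WT level was 103 with a pseudocount of 5, 87.3 at 4-fold, and 64.3 and 131 with means of at least 10 and 50 (71.0 to 85.7 with 1 left out). With promoters taken to 2.5 kb, 89.0% of lost regions lay outside them, and the share not protein-coding among lost promoters stayed between 64.9% and 83.3% over its alternatives. The share with another lost region nearby was 41.7% at 2-fold, 9.48% at 4-fold, 11.2% for 20 kb and 25% for 100 kb. Held-out changes ranged from -1.58 to -1.48, and those of neighbours under 5 kb from -0.53 to -0.38. Same-numbered WT and CSE-KO libraries had correlated deviations of 0.003, -0.011 and 0.013, and other pairs -0.024 to 0.022, so the numbers were not taken to pair the libraries. With the replicate block, limma called 715 lost regions and 103 neighbours within 10 kb (14.7%, beside 6.12% of eligible regions) lower, and 3 promoters of genes with a lost distal region lower and 6 higher. With trend and robust, 753 lost regions were called lower, beside 16.1% of eligible regions, and 38 of those promoters lower and 60 higher. With 1 library left out, 558 to 725 lost regions, 62 to 158 neighbours and 1 to 14 promoters were called lower, and 3 to 15 promoters higher, while 3.45% to 9.47% of eligible regions were called lower. The coarse steps of low CSE-KO values limit the folds of weak regions, and the depth behind each value is known only from those steps.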
